A study of Mus musculus with 6 samples.

Results

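Somatostatin and cortistatin are related neuropeptides, and in mice they act on a shared family of G protein-coupled receptors encoded by the *Sstr* genes. The genes analysed were the ligand genes *Sst* and *Cort* and the receptor genes *Sstr1*, *Sstr2*, *Sstr3* and *Sstr4*, which were looked up by symbol in the table of log2 CPM (read counts scaled to library size, where 1 unit is a doubling). Of these 6 genes, 5 were among the 13886 protein-coding genes of the table, namely *Sst* and the 4 receptors. *Cort* was not listed. Because the table holds only genes that passed a filter on low values, the level of *Cort* is not known. The rule used symbols, not measured values.

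The RNA came from KissRibo females (Kiss1Cre+/Rpl22HA+/+), in which Cre driven from the *Kiss1* locus leads to an HA tag on the ribosomal protein Rpl22, so that ribosomes of *Kiss1* cells and their mRNA can be immunoprecipitated (IP). Micro-punches of the medial amygdala (MeA) from 4 mice were pooled for each library. All females, in both groups, were ovariectomized at 8 weeks of age, carried an estradiol (E2) capsule for 4 days from that time and then went 7 days without it. The 3 E2 libraries came from females that next received an E2 capsule for 5 days, and the 3 OVX libraries from females given none. The tag follows Cre, so a cell that carried it need not have been making *Kiss1* mRNA when the tissue was taken. The libraries are bulk RNA, in which a lower level from fewer cells and a lower level from less RNA per cell cannot be told apart.

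Somatostatin is made as a precursor whose C-terminal end is cut out as the active peptide. It generally inhibits the cells it acts on, since its receptors couple to inhibitory Gi/o proteins that lower cyclic AMP and open G protein-gated potassium channels. The receptors fall into a pair of pharmacological classes, with *Sstr2*, *Sstr3* and *Sstr5* in one and *Sstr1* and *Sstr4* in the other. In the forebrain, *Sst* is best known as a marker of a class of GABA interneurons, and it is also made by many neurons of the amygdala and hypothalamus.

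The kinship of the ligands is visible in their coding sequence. The last 14 codons of each coding sequence before the stop codon, which cover the mature peptide, are shown because they are the stretch by which both ligands bind the same receptors, and because they show what *Cort*, which has no value here, shares with *Sst*. They were read from GENCODE mouse transcripts (GRCm38) and are written 5′ to 3′ on the coding strand. Capitals mark the bases that are identical in the other gene when the stretches are aligned with a shift of 1 codon. *Sst* lies at chr16:23889732-23889773 and *Cort* at chr4:149125267-149125308, both on the minus strand.
Sst: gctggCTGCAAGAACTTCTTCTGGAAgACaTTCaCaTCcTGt
Cort: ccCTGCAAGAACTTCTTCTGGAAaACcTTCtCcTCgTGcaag
Of 39 aligned bases, 31 were identical (79.5%).

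*Sst* (ENSMUSG00000004366, chr16:23889573-23890958, minus strand) encodes the ligand with a value here. Its log2 CPM was 6.35, 6.31 and 6.14 in OVX replicates 1, 2 and 3 and 6.16, 6.12 and 6.25 in E2 replicates 1, 2 and 3. The groups overlapped, since OVX replicate 3 lay below E2 replicates 1 and 3. The means were 6.27 ± 0.11 in OVX and 6.18 ± 0.06 in E2 (SD, 3 libraries each). The difference, E2 minus OVX, was -0.09 (SE 0.07, 95% interval -0.25 to 0.06) and did not pass the test (limma, Benjamini-Hochberg adjusted p = 0.798). Here and below the test was limma on the log2 CPM of all 13886 genes, 2-sided, with an adjusted p under 0.05 as the threshold.

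*Sstr1* (ENSMUSG00000035431, chr12:58211772-58214444, plus strand), a receptor coupled to Gi/o, was higher in each E2 library than in each OVX library. Its log2 CPM was 4.69, 4.55 and 4.50 in OVX replicates 1, 2 and 3. In E2 replicates 1, 2 and 3 it was 5.05, 4.85 and 5.02. The gap between the highest OVX and the lowest E2 library was 0.16, larger than the SD within either group (0.10 in OVX and 0.11 in E2, n = 3 each). The difference was 0.39 (SE 0.10, 95% interval 0.18 to 0.61), or 1.31-fold higher with E2. Its unadjusted p was 0.00136 by limma, and after Benjamini-Hochberg adjustment over all genes it was 0.165, so it did not pass the test.

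*Sstr2* (ENSMUSG00000047904, chr11:113619342-113626028, plus strand), the receptor with high affinity for the drug octreotide, lay on the other side. OVX replicates 1, 2 and 3 had a log2 CPM of 5.06, 5.07 and 5.26. In E2 replicates 1, 2 and 3 it was 4.69, 4.84 and 4.88. Each E2 library was below each OVX library, with a gap of 0.18 between the groups. The difference was -0.33 (SE 0.09, 95% interval -0.53 to -0.12), which is 1.25-fold more in OVX, with an unadjusted p of 0.00422 and an adjusted p of 0.281 by limma, and it did not pass the test.

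*Sstr3* (ENSMUSG00000044933, chr15:78537008-78544685, minus strand), a receptor found on the primary cilia of neurons, showed no such separation. Its log2 CPM was 5.37, 5.53 and 5.58 in OVX replicates 1, 2 and 3 and 5.48, 5.61 and 5.49 in E2 replicates 1, 2 and 3. The groups overlapped almost fully. The difference was 0.03 (SE 0.08, adjusted p = 0.962 by limma), and its 95% interval of -0.15 to 0.21 left out differences of the size measured for *Sstr1* and *Sstr2*.

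*Sstr4* (ENSMUSG00000037014, chr2:148395344-148396767, plus strand), whose coding sequence lies in a single exon, had few reads. It measured a log2 CPM of 2.26, 2.09 and 2.28 in OVX replicates 1, 2 and 3. In E2 replicates 1, 2 and 3 it was 1.75, 1.67 and 1.86. All E2 libraries lay below all OVX libraries, with a gap of 0.23. The difference of -0.45 (SE 0.22, 95% interval -0.94 to 0.03) was 1.37-fold in favour of OVX and did not pass the test (limma, adjusted p = 0.612). The SE that limma gave from the trend of all genes at this level was 2.79 times the SE of 0.08 from the 6 values alone. Counts rebuilt from the log2 CPM put 101 to 145 reads on *Sstr4* in a library. Without the mean-variance trend the unadjusted p was 0.00196, against 0.0652 with it, and the adjusted p was 0.429 by limma.

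**Figure D1:**
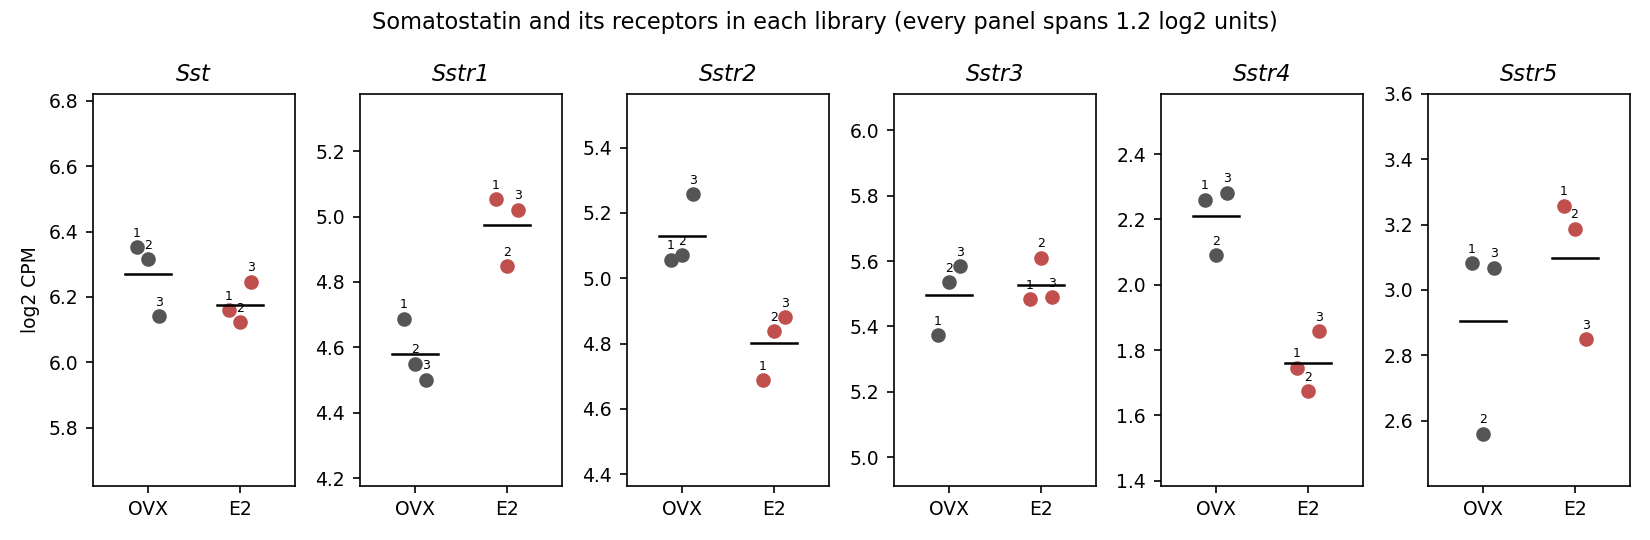
Log2 CPM of *Sst*, the 4 listed receptors and *Sstr5* in each library (vertical axis, each panel spanning the same range around its own mean) for the OVX and E2 groups (horizontal axis). Points are libraries with their replicate numbers and bars are group means of 3; the groups are apart for *Sstr1*, *Sstr2* and *Sstr4* and overlap for *Sst*, *Sstr3* and *Sstr5*.

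By limma, 0 of the 5 listed genes passed the adjusted threshold, and 2 of 5, *Sstr1* and *Sstr2*, had an unadjusted p under 0.05. With voom weights the counts were also 0 and 2, and without the trend *Sstr4* had an unadjusted p under 0.05 as well. Among all 13886 genes, 0.23% were called higher and 0.0576% lower with E2, and 8.56% had an unadjusted p under 0.05. *Sstr1* was the 1 listed gene with every E2 library above every OVX library, a pattern held by 6.85% of all genes. *Sstr2* and *Sstr4* had every E2 library below every OVX library, as did 6.82% of all genes. For these 3 receptors the gap between groups was larger than the SD within either group. They were singled out by the lack of overlap in the same values, so the gap adds no independent support. None of their differences passed after adjustment over all genes. The summed CPM of 6 markers of forebrain excitatory neurons separated the groups, at 880 to 1137 in OVX and 668 to 871 in E2. Of the 6, only 1, *Slc17a7*, had groups that did not overlap. The mean log2 CPM of the 6 overlapped between groups, with OVX replicate 3 at 5.18 and E2 replicate 3 at 5.19. The part of such cells in the receptor differences was not tested.

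**Figure D2:**
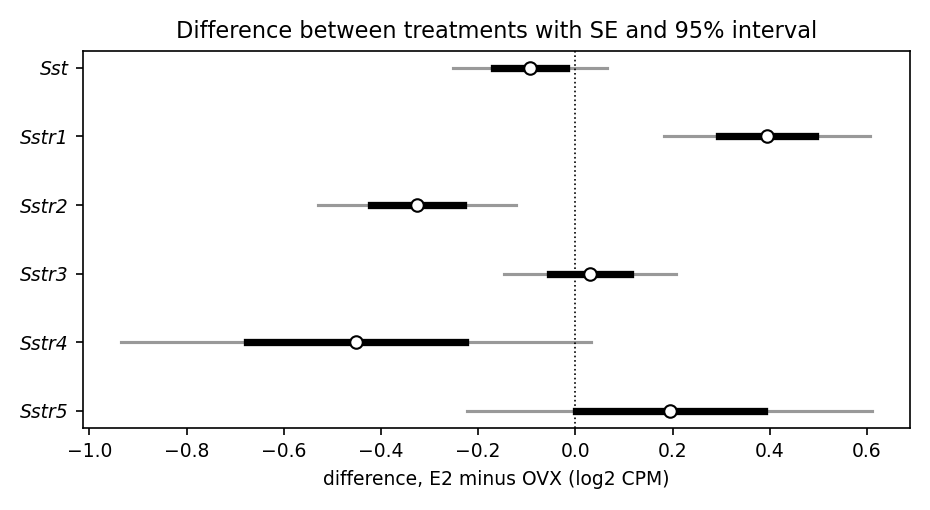
Difference in log2 CPM, E2 minus OVX (horizontal axis), for *Sst*, the 4 listed receptors and *Sstr5*, from limma with 3 libraries per group. Open points are the differences, thick bars 1 SE on each side and thin bars 95% intervals; the intervals of *Sstr1* (0.18 to 0.61) and *Sstr2* (-0.53 to -0.12) lie on opposite sides of 0 and the others include 0.

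The *Sstr1* to *Sstr2* balance was compared within each library, which removes any difference in library scaling. The pair was chosen with the direction of each gene known, so the ratio adds no independent support. The log2 ratio of *Sstr1* to *Sstr2* CPM was -0.37, -0.52 and -0.76 in OVX replicates 1, 2 and 3. It was 0.36, 0.01 and 0.14 in E2 replicates 1, 2 and 3. The ratio was thus lower in each OVX library than in each E2 library. The mean ratio was -0.55 ± 0.19 in OVX and 0.17 ± 0.18 in E2 (SD, n = 3 each), a difference of 0.72 or 1.65-fold. The exact permutation test of the 3 against 3 libraries gave a 2-sided p of 0.1, the smallest that its 20 arrangements allow, so this design cannot reach 0.05.

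Another 4 receptor ratios were computed after the values had been seen. The log2 ratio of *Sstr1* to *Sstr4*, which belong to the same pharmacological class, was 2.37 ± 0.13 in OVX and 3.21 ± 0.08 in E2 (SD, n = 3 each), a 1.80-fold difference without overlap (exact permutation p = 0.1). The ratio of *Sstr2* to *Sstr4* differed by 0.13 with overlapping groups (exact permutation p = 0.3). The ratios to *Sstr3* differed by 0.36 for *Sstr1*, with overlap (exact permutation p = 0.2), and by -0.36 for *Sstr2*, without (exact permutation p = 0.1). After Benjamini-Hochberg adjustment over the 5 ratios the lowest p of these exact permutation tests was 0.167. Each E2 library lay above each OVX library for *Sstr1* and below it for *Sstr2* and *Sstr4*. The ratios of *Sstr1* to either therefore had to separate the groups, and they add no independent support.

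Levels of *Sst* and the receptors were compared with each other as CPM per kilobase of the longest GENCODE transcript. Over the 6 libraries the mean log2 CPM per kilobase was 6.69 for *Sst*, 3.87 for *Sstr2*, 3.77 for *Sstr1*, 3.42 for *Sstr3* and 1.48 for *Sstr4*. *Sst* held rank 506 of 13873 genes with a length, and the receptors ranks 4530, 4797, 5710 and 10284 in that order. *Sst* was 7.10-fold above *Sstr2*, its nearest neighbour, and between 5.49-fold and 8.23-fold in single libraries. *Sstr2* and *Sstr1* did not differ beyond their spread, with a mean log2 gap of 0.10 ± 0.43 (SD, n = 6), and their order was that of the groups, *Sstr2* first in 3 of 3 OVX libraries and *Sstr1* first in 3 of 3 E2 libraries. *Sstr1* was above *Sstr3* in 6 of 6 libraries, by as little as 0.0027 in 1 of them. *Sstr2* was 5.24-fold above *Sstr4*. The order, and the shares given next, rest on GENCODE transcript lengths. RefSeq gives longer gene spans than GENCODE for *Sstr1* (4617 against 2673 bases), *Sstr3* (12352 against 7678) and *Sst* (1770 against 1386).

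The summed level of the 4 receptors was nearly the same in both groups, at 42.1 ± 1.4 CPM per kilobase in OVX and 41.9 ± 0.9 in E2 (SD, n = 3 each). The shares of single receptors in that sum differed between groups. *Sstr1* made up 30.9%, 28.3% and 25.7% of the sum in OVX replicates 1, 2 and 3 and 39.9%, 34.6% and 37.6% in E2 replicates 1, 2 and 3. *Sstr2* made up 37.5%, 38.1% and 40.8% in OVX and 29.1%, 32.3% and 32.0% in E2. The *Sstr1* share was higher by 9.05 percentage points with E2, and the *Sstr2* share lower by 7.67 points, without overlap in either case. The *Sstr3* share was 25.1% ± 1.5 in OVX and 25.8% ± 1.6 in E2, and the *Sstr4* share 7.74% ± 0.43 and 5.68% ± 0.25 (SD, n = 3 each). These shares rest on the same values as the differences above and were not tested again.

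**Figure D3:**
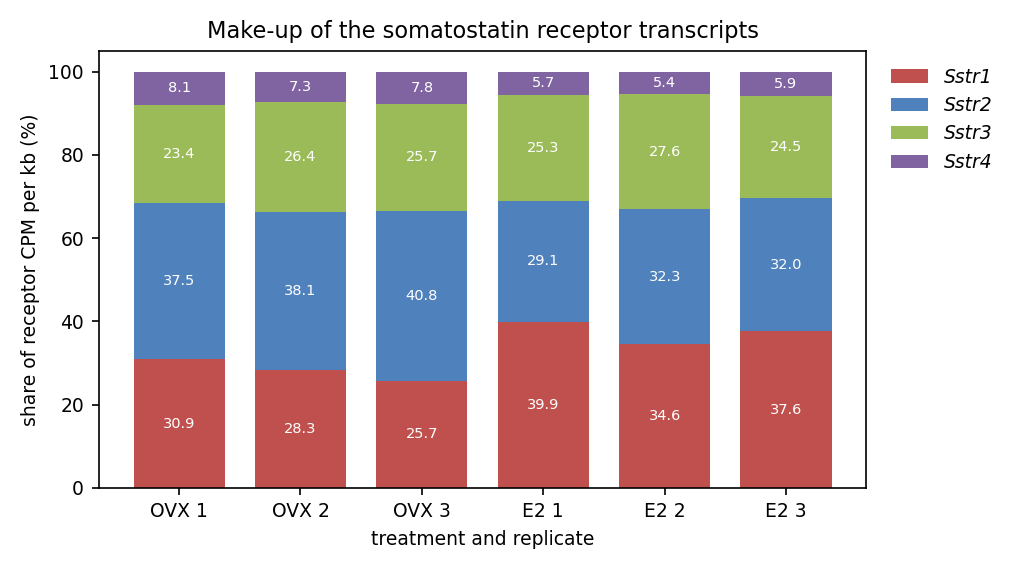
Share of each receptor in the summed CPM per kilobase of *Sstr1*, *Sstr2*, *Sstr3* and *Sstr4* (vertical axis, percent) in each library (horizontal axis). Bars are single libraries with the share written in each segment; the *Sstr1* segment is 25.7% to 30.9% in OVX and 34.6% to 39.9% in E2 libraries.

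*Sstr5*, the remaining somatostatin receptor, was listed too. Its log2 CPM was 3.08, 2.56 and 3.07 in OVX replicates 1, 2 and 3 and 3.26, 3.19 and 2.85 in E2 replicates 1, 2 and 3, and the groups overlapped. The difference was 0.19 (SE 0.19, adjusted p = 0.858 by limma). Per kilobase it stood beside *Sstr4*, at 1.55 against 1.48 on the log2 scale, below it in 3 of 3 OVX libraries and above it in 3 of 3 E2 libraries. With *Sstr5* in the sum, the *Sstr1* share was 26.5% ± 2.4 in OVX and 34.7% ± 2.4 in E2 (SD, n = 3 each). *Ghsr*, the ghrelin receptor, which cortistatin also binds, had a mean log2 CPM of 0.94, and its difference of 0.66 (SE 0.36) gave an adjusted p of 0.674 by limma.

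The promoters were examined because *Sst* is a textbook target of CREB, the factor that binds the cyclic AMP response element (CRE), and because E2 can act through estrogen response elements. RefSeq promoter windows (GRCm38.p6) were matched by symbol for *Sst*, *Cort*, *Sstr2*, *Sstr3* (2 windows) and *Sstr4*, and *Sstr1* and *Sstr5* had no entry. The 250 bases before the start were searched on both strands. The CRE, spelled TGACGTCA, was in the windows of *Sst* (48 bases before the start) and *Sstr2* (58 bases before the start), and in 1.55% of 32851 windows of the same length. The 30 bases around each match are shown on the gene's strand with the element in capitals. They lie at chr16:23890874-23890903 (minus strand) and chr11:113619258-113619287 (plus strand), and the *Sst* match is inside the first exon as GENCODE annotates it.
Sst: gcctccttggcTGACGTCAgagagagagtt
Sstr2: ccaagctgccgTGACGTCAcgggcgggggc
The full palindromic estrogen response element was in none of these windows and in 0.064% of all. The letters GGTCA, which form either arm of it, were in 1 *Sstr3* window and in 35.2% of all. A match or its absence says only whether these letters are present in the window. The 2 genes that share the CRE had differences of -0.09 (*Sst*) and -0.33 (*Sstr2*) on the log2 scale, neither past the test.

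The genes around the receptors were taken from lists of 57 genes, of which 55 were listed (*Kcnj5* and *Pdx1* were not). By limma 0 of 55 passed the adjusted threshold and 8 had an unadjusted p under 0.05, as with voom weights, while 8.56% of all genes did. Groups did not overlap for 10 of the 55 (18.2%), against 13.7% of all genes. The differences were positive for 23 and negative for 32, with a median of -0.03 on the log2 scale against 0.00 over all genes tested.

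None of the transducers directly downstream of the receptors passed the adjusted threshold. Among the 5 inhibitory G protein alpha subunits, *Gnao1*, the Go alpha subunit, abundant in brain, had a mean log2 CPM of 9.56 (difference 0.02, SE 0.05), and the largest difference was that of *Gnaz* (-0.13, SE 0.07). Of the 9 adenylyl cyclases, a family that includes the enzymes that the receptors inhibit, *Adcy5* had a mean log2 CPM of 7.97 (difference -0.02, SE 0.05). *Adcy4* had the largest difference of the 9 (0.25, SE 0.30). *Adcy1*, named after its values were seen, was the 1 cyclase with an unadjusted p under 0.05 (difference -0.24, SE 0.11, adjusted p = 0.563 by limma), and its groups overlapped. *Kcnj9*, a subunit of the G protein-gated potassium channels, was lower in each E2 library, at 7.12, 7.10 and 7.22, than in the OVX libraries, at 7.31, 7.30 and 7.31 (difference -0.16, SE 0.06, adjusted p = 0.429 by limma). Among the receptor kinases and arrestins, which end signalling, *Arrb1* had a mean log2 CPM of 8.18 (difference 0.02, SE 0.06). *Grk4* had the largest difference of that list (0.47, SE 0.30, adjusted p = 0.737 by limma) and was higher in each E2 library than in each OVX library.

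The 8 phosphatases and scaffold proteins of the receptors stood lower in E2 on average in 8 of 8 cases, with a median difference of -0.20 on the log2 scale, and 4 of the 8 had an unadjusted p under 0.05. Over all genes, 6795 of 13886 differences were negative and 8.56% had an unadjusted p under 0.05. *Shank2*, a scaffold of excitatory synapses whose family can bind somatostatin receptors, came nearest to the threshold. Its log2 CPM was 8.52, 8.60 and 8.31 in OVX replicates 1, 2 and 3 and 7.93, 7.94 and 8.25 in E2 replicates 1, 2 and 3, without overlap. By limma the difference was -0.43 (SE 0.09), with an adjusted p of 0.0786. It passed when genes with a CPM not above 1 in all 6 libraries were left out (adjusted p = 0.0477), without OVX replicate 3 (-0.52, adjusted p = 0.0388) and without E2 replicate 3 (-0.54, adjusted p = 0.00894). *Dlg4*, which encodes PSD-95, had a mean log2 CPM of 9.77 (difference -0.04, SE 0.05). Markers of forebrain excitatory neurons were lower in E2 alongside, as given below with the other markers, and their part in these values was not tested.

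Upstream, 8 of 8 listed genes for processing of peptide precursors were measured. *Cpe*, which trims the cut peptides, had a mean log2 CPM of 10.5 (difference 0.01, SE 0.06), and the convertase *Pcsk5* had the largest difference (0.35, SE 0.17). *Pcsk1* and *Pcsk2*, the main neuroendocrine convertases, were looked at after their values were seen. They lay on opposite sides without overlap, with differences of 0.21 (SE 0.07, adjusted p = 0.397 by limma) and -0.14 (SE 0.05, adjusted p = 0.454 by limma). Of the peptidases, *Thop1* had a mean log2 CPM of 6.17 (difference -0.06, SE 0.08) and *Mme*, which encodes neprilysin, had the largest difference (-0.31, SE 0.21). Of the CREB pathway genes, *Crtc1* differed by -0.12 (SE 0.06) and *Atf1* had the largest difference (0.29, SE 0.18).

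**Figure D4:**
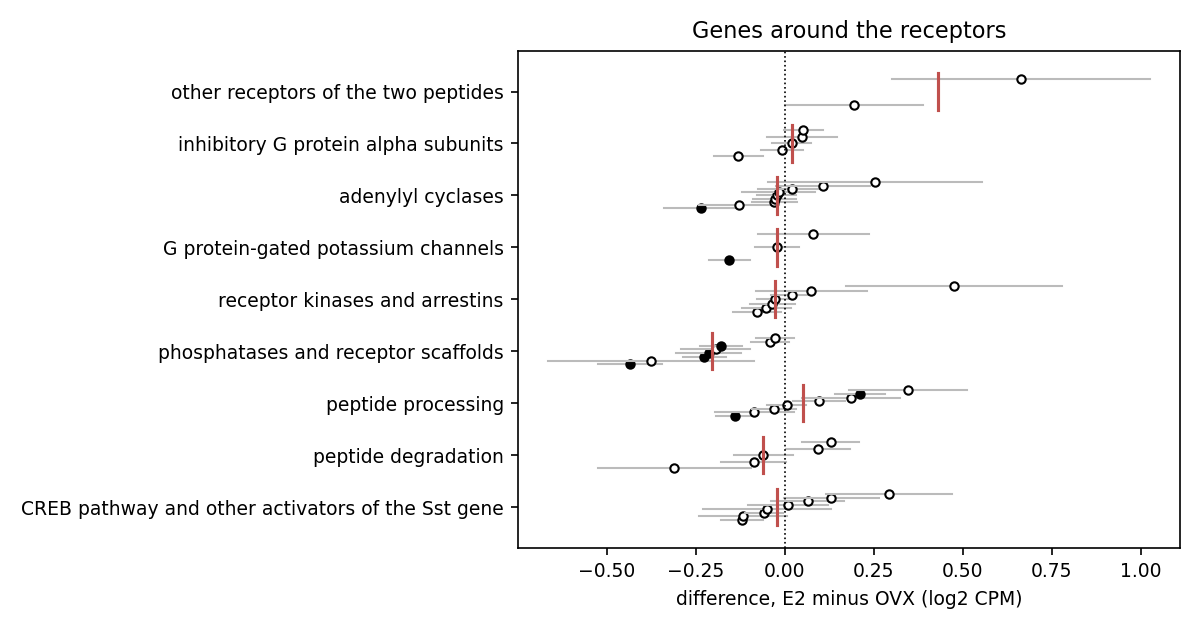
Difference in log2 CPM, E2 minus OVX (horizontal axis), for the 55 listed genes around the receptors, in rows by list. Points are genes with bars of 1 SE, filled where the unadjusted limma p was under 0.05, and red lines are list medians; the 8 points of the phosphatases and scaffolds are all below 0, and none of the 55 genes passed the adjusted threshold.

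Of the genes taken as markers of forebrain somatostatin interneurons, 10 of 10 were listed and 0 were called by limma. Being listed means only that a gene passed the filter on low values. These bulk values do not show which cells held the markers. Their summed CPM was 875 to 952 in OVX and 914 to 1013 in E2 libraries, a sum weighted towards *Nos1*, which had the highest level. The mean log2 CPM was 4.62 for *Lhx6*, 5.51 for *Sox6*, 5.43 for *Satb1*, 5.12 for *Elfn1*, 9.07 for *Nos1*, 3.63 for *Npy*, 2.14 for *Chodl*, 3.17 for *Crhbp*, 6.95 for *Grin3a* and 6.65 for *Reln*, values not corrected for length. *Elfn1*, a synaptic adhesion protein, had the largest difference (0.39, SE 0.09, adjusted p = 0.144 by limma) and was higher in each E2 library. *Satb1* was lower in each E2 library (-0.13, SE 0.07, adjusted p = 0.685 by limma). Groups thus did not overlap for 2 of the 10 (20.0%), against 13.7% of all genes. The 10 differences were split 5 against 5, with a median of 0.00. An unadjusted p under 0.05 was found for 2 of the 10, and for 8.56% of all genes.

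*Kiss1* (ENSMUSG00000115958), a gene that E2 is known to raise in the MeA, bears on the treatment labels and not on how well the IP enriched its target cells. It was 1.75 ± 0.59 in OVX and 3.66 ± 0.19 in E2 (log2 CPM, SD, n = 3 each) and passed the test (difference 1.91, SE 0.26, adjusted p = 0.00475 by limma). Another gene model with that symbol (ENSMUSG00000116158) had 1 OVX library at the lowest value of that library and an adjusted p of 0.0942. Markers of broad cell classes were also listed, in a table that holds only genes past a filter on low values. The paper reports *Gad1*, *Gad2*, *Slc32a1* and *Vglut1* (*Slc17a7*) in MeA *Kiss1* cells, from these same IP libraries. Which cells held the neuronal markers was not tested. The 6 forebrain excitatory markers were lower in E2 in 6 of 6 cases (median -0.48, 5 with an unadjusted p under 0.05 and 0 called by limma). Those of the choroid plexus were lower in 4 of 4 cases (median -0.50, 2 with an unadjusted p under 0.05), those of astrocytes higher in 5 of 5 (median 0.18, 1 under 0.05) and those of GABA neurons higher in 3 of 3 (median 0.15, 1 under 0.05), with 0 called by limma in each list. The 3 GABA neuron markers summed to a CPM of 358 to 434 in OVX and 423 to 509 in E2, and the 5 astrocyte markers to 509 to 681 and 598 to 790. The 5 oligodendrocyte markers summed to 1432 to 2015 and 1575 to 2220, microglia (5) to 79.5 to 103 and 77.4 to 98.7, endothelium (5) to 73.8 to 158 and 92.2 to 127, and choroid plexus (4) to 680 to 1063 and 391 to 1005. The part of these cells in the levels of *Sst* and its receptors was not tested. The paper sequenced only IP RNA of KissRibo females, so there were no libraries of input RNA or of mice without Cre to compare. Each library held between 28.1M and 34.2M reads after scaling.

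The genes whose log2 CPM followed each member most closely were ranked by Pearson's r over the 6 libraries among 12909 genes, as a description. *Galnt18*, *Pam16* and *Ddx17* were nearest to *Sstr1* (r = 0.999, 0.997 and 0.994). *Snrk*, *Zfp574* and *Wls* were nearest to *Sstr2* (r = 0.998, 0.987 and 0.987), and *Shisal1*, *Crebl2* and *Lzts3* to *Sstr4* (r = 0.995, 0.989 and 0.987). *Dusp15*, *Lgals1* and *A930011G23Rik* were nearest to *Sst* (r = 0.992, 0.990 and 0.989), and *Scamp1* and *Nfkbil1* to *Sstr3* (r = 0.991 and 0.989). All points share libraries and treatment, and between 115 and 181 genes had an r above 0.9 with any 1 member.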

How the data were processed

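RNA-seq of MeA IP samples was analysed in 6 libraries, 3 OVX and 3 E2, grouped by their labels. The deposited values were log2 CPM, which the authors made with TMM scaling and voom from RSEM estimates for protein-coding genes on GRCm38 with Ensembl annotation. The submitters' processing notes name FastQC 0.11.8, Trimmomatic 0.38, STAR 2.6.0a and limma. A deposited table of the authors' comparison (fold changes, statistics and p-values) was not used.

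E2 was compared with OVX by limma 3.58.1 in R 4.3.3 on all 13886 genes with a mean-variance trend, 2-sided, with Benjamini-Hochberg adjustment over all genes. Voom weights came from counts rebuilt by taking the lowest value of a library as a count of 0 plus 0.5, which depends on that assumption. The steps were tested on simulated data, where recovery was required only of changes larger than those measured for the members. The pools may differ technically as well as biologically. The limma p-values rest on the spread of a gene between pools, drawn towards the trend over all genes. Same-numbered libraries did not deviate together (correlations across genes -0.02, -0.12 and -0.08), so numbers were not taken to pair them. Lengths and positions came from GENCODE release M21. No exonic bases of a member were shared with another gene.

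Named were the listed members, the other receptors of the peptides, from each pathway list the gene with the highest log2 CPM (not corrected for length), the largest difference and any call, all interneuron markers, the 3 genes most like each member (mean log2 CPM of at least 1) and *Kiss1*. A gene that this rule names is not reported here. Members and lists were chosen with earlier results of these data known. Alternatives were voom weights, no trend, robust empirical Bayes, median centring, quantile normalization, log2 of CPM plus 1, a CPM above 1 in all 6 libraries, sample quality weights, a replicate block and each library left out.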

Additional observations from a re-analysis of the deposited data

How the results depend on the processing

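None of the 5 listed members was called under any of the 15 alternatives. The differences of *Sst*, *Sstr1*, *Sstr2* and *Sstr4* kept their direction in all 15, with adjusted p-values by limma of 0.558 to 0.971 for *Sst*, 0.144 to 0.540 for *Sstr1*, 0.247 to 0.717 for *Sstr2* and 0.429 to 0.913 for *Sstr4*. The *Sst* difference of -0.0935 was -0.157 without OVX replicate 3 and -0.0524 without OVX replicate 1. The *Sstr3* difference ran from -0.0312 to 0.0738 as libraries were left out and was negative without OVX replicate 1 (-0.0312) and without E2 replicate 2 (-0.0102). The *Sstr1* to *Sstr2* ratio difference was 0.62 to 0.81 with a library left out. Without the mean-variance trend, limma called 0 genes higher and 0 lower, with 1017 of 13886 at an unadjusted p under 0.05. Leaving out a library gave 19 to 43 genes higher and 1 to 30 lower. The higher count was 20 without OVX replicate 1, 20 without E2 replicate 1 and 19 without E2 replicate 2, and the lower count was 1 without OVX replicate 1, 1 without E2 replicate 2 and 30 without E2 replicate 3. Genes lower were 4 with sample quality weights and 5 with the replicate block, which called 30 higher, left *Sstr1* at 0.39 (adjusted p = 0.329 by limma) and changed no member's call. Pathway genes called were 1 with a CPM above 1 in all 6 libraries and 0 to 1 with a library left out, *Shank2* each time. The causes were not tested. *Cort* had no value under any setting. With 101 to 145 rebuilt reads per library, *Sstr4* was the member whose difference had the widest interval.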
